A study of Caenorhabditis elegans with 12 samples.

Results

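Cell corpse engulfment is the process by which a neighbouring cell recognises, swallows and digests a cell that has died by apoptosis. In the nematode Caenorhabditis elegans, 9 genes of this process were chosen for description by gene name: ced-1, ced-2, ced-5, ced-6, ced-7, ced-8, ced-10, dyn-1 and ttr-52. The files hold 8 of these names, out of 40961 gene names in all, and ttr-52 was not analysed here. All 8 exceeded the filter for testing, at least 1 RPKM (reads scaled to transcript length and to library size, a level per length) in at least 4 libraries.

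RNA was sequenced from gonads that were dissected with needles out of adult worms of the F3 generation, kept at 20 °C on a lawn of OP50 E. coli. Their P0 ancestors had spent 48 h with bisphenol A at 100 µM (BPA, a monomer of polycarbonate plastics), with the solvent dimethyl sulfoxide at 0.1% (DMSO) or with water. Their F3 descendants are called here the BPA, DMSO and water lineages. Each lineage has 4 libraries, 12 in all, named by group and sample number as in BPA 3. The labels give neither the strain, nor how many animals went into a library, nor whether the BPA medium held DMSO, and they do not say that the samples of a group were separate cultures. The p-values therefore rest on the spread among these libraries, part or all of which may be technical.

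In the adult hermaphrodite many germ cells die in the meiotic part of the gonad arm, and the somatic sheath cells that wrap the arm take up the corpses. A dying cell is marked by phosphatidylserine on its surface, and a pair of partly parallel pathways then act in the engulfing cell. In the first, the receptor CED-1, the adaptor CED-6 and the ABC transporter CED-7 work together, with TTR-52 as a secreted bridge to the corpse and the dynamin DYN-1 in the maturing phagosome. In the second, CED-2, CED-5 and CED-12 activate the RAC GTPase CED-10, which rearranges actin.

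The libraries were of gonad, with germline markers high in each group. The 7 germline markers summed to 3534 to 4066 RPKM in the BPA lineage, 3274 to 4194 RPKM in the DMSO lineage and 1656 to 5214 RPKM in the water lineage. Water 1 had the lowest sum and water 2 the highest. The markers parted in water 1: glh-1, pgl-1, rme-2, cgh-1 and mex-3 were at their lowest of the 12 libraries. There gld-1, at 177 RPKM, and oma-1, at 294.9 RPKM, were at their highest. The 6 markers listed for the gonadal sheath summed to 64.7 to 149.2, 65.5 to 103.9 and 84.6 to 111.1 RPKM in the BPA, DMSO and water lineages, mostly from the gap junction gene inx-8. That list includes the niche ligand gene lag-2, which is not a marker of sheath cells and stayed under 1 RPKM in every library. Markers of other tissues varied more. The 6 intestine markers summed to 11.8 to 58.4 RPKM in the BPA lineage, 11.8 to 468.4 RPKM in the DMSO lineage and 16.8 to 132.6 RPKM in the water lineage. Most of the 468.4 RPKM, in DMSO 3, came from vit-2 (184.1 RPKM) and vit-5 (259.2 RPKM). There asp-3 was also at its highest, at 19.8 RPKM, while ges-1 and elt-2 stayed under 1 RPKM in every library. The 5 body wall muscle markers summed to 10.4 to 33.5, 10.98 to 24.2 and 9.74 to 37.99 RPKM in the same order. The depth estimated from the smallest values was 13.96 to 33.5 M reads a library (M, mega). The estimate is coarse: only 29.3% to 35.3% of low values came within 0.1 of a whole read. Because these are bulk samples, fewer cells of a type and less RNA per cell cannot be told apart.

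The engulfment genes were expressed at middle levels, and 1 stood well below the rest. Averaged over the 12 libraries, ced-7 stood at 43.7 ± 7.84 RPKM (SD, n = 12), ced-6 at 37.4 ± 3.78, ced-5 at 33.6 ± 3.89, ced-1 at 28.6 ± 7.31 and ced-2 at 21.9 ± 5.41 RPKM. The X-linked genes of the set followed, ced-8 at 20.4 ± 8.25 and dyn-1 at 13.6 ± 6.09 RPKM, and the RAC gene ced-10 came last at 2.03 ± 0.73 RPKM. Neighbours from ced-7 to ced-8 in this order did not differ beyond their spread: the ranges of each pair overlapped, and the higher of the pair led in 7 to 10 of 12 libraries. The gene ced-8 lay above dyn-1 in 12 of 12 libraries, by 6.77 ± 3.91 RPKM, although their ranges overlapped, and dyn-1 lay above ced-10 with no overlap. Among the 7570 tested genes, whose median level was 15.4 RPKM, ced-7 was at percentile 72.96, dyn-1 at 48.2 and ced-10 at 18.1. With the longest annotated transcript and the estimated depth, the values correspond to roughly 28.6 to 111 reads a library for ced-10 and to at least 267 reads for the others.

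**Figure D1:**
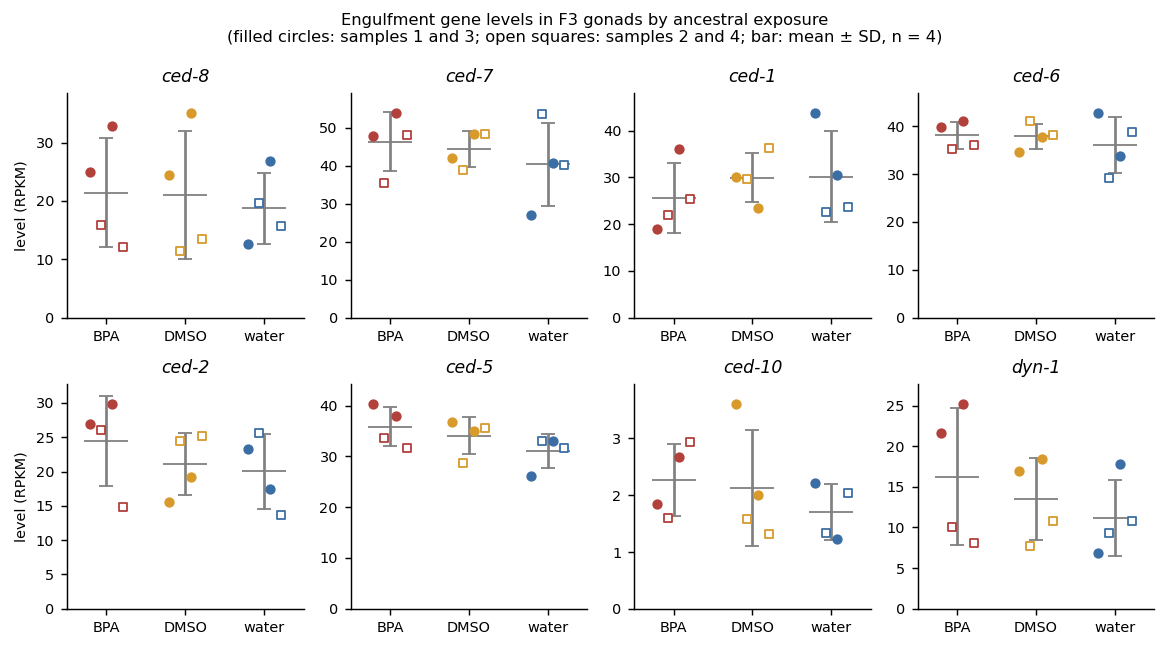
Level (RPKM) of each engulfment gene in the 12 libraries, by ancestral exposure. Points are libraries, filled for samples 1 and 3 and open for samples 2 and 4, and bars are the mean and SD (n = 4). The exposures overlap in all 8 panels, and in ced-8 and dyn-1 the filled points lie above the open ones in BPA and DMSO.

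The question of the design is whether an exposure of the P0 generation left a difference in the F3 gonad. No engulfment gene passed the test in any of the 3 comparisons (limma on log2(RPKM + 1), Benjamini-Hochberg adjusted p under 0.05 over 7570 genes). Between BPA and DMSO 0 of 8 were called, where 0.0264% of all tested genes were, and 0 of 8 had an unadjusted p under 0.05, against 0.872% of all genes. Between BPA and water 0 of 8 were called, against 0.0132% of all genes, and 0 of 8 had an unadjusted p under 0.05, against 2.71%. Between DMSO and water 0 of 8 were called, against 0.0132%, and 0 of 8 had an unadjusted p under 0.05, against 1.7%. In each comparison the groups overlapped for all 8 genes, and groups that did not overlap made up 0.634% of tested genes with BPA above DMSO, 1.52% with BPA above water and 0.515% with DMSO above water. In the other direction the shares were 0.449%, 0.502% and 0.37%.

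On the corpse side stands ced-8, a homologue of the mammalian lipid scramblase XKR8, which promotes exposure of phosphatidylserine on dying cells. Its level was 24.9, 15.8, 32.8 and 12.1 RPKM in the BPA libraries 1 to 4, 24.5, 11.35, 35.04 and 13.4 RPKM in DMSO 1 to 4, and 12.7, 19.6, 26.8 and 15.7 RPKM in water 1 to 4. The lineages overlapped, with samples 1 and 3 high in BPA and DMSO and sample 3 the highest in water. The difference in log2(RPKM + 1) between BPA and DMSO was 0.06 (95% confidence interval -0.79 to 0.91), and between BPA and water it was 0.14 (-0.71 to 0.99).

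In the CED-1 pathway, the transporter gene ced-7, whose product acts in both the dying and the engulfing cell, had the highest level. It stood at 47.8, 35.5, 53.9 and 48.2 RPKM in the BPA lineage, 42.1, 38.9, 48.3 and 48.3 RPKM in the DMSO lineage, and 26.99, 53.7, 40.7 and 40.3 RPKM in the water lineage. Water 1 was the lowest library, and the groups overlapped. The log2 difference was 0.05 (-0.38 to 0.48) between BPA and DMSO and 0.22 (-0.21 to 0.64) between BPA and water.

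The receptor gene ced-1, related to Draper of flies, was the only one of the 8 with a mean lower in BPA than in both other groups. It stood at 18.95, 21.9, 36.13 and 25.3 RPKM in the BPA lineage, 30.1, 29.6, 23.6 and 36.4 RPKM in the DMSO lineage, and 43.8, 22.6, 30.4 and 23.7 RPKM in the water lineage. BPA 3 was the third highest of the 12 libraries and water 1 the highest, so the lineages overlapped. The log2 differences, -0.24 (-0.77 to 0.29) between BPA and DMSO and -0.22 (-0.75 to 0.31) between BPA and water, did not pass the test (limma, adjusted p = 1 and adjusted p = 0.987). Without water 1 the difference between BPA and water was -0.029. Without BPA 3, the highest BPA library, the differences were -0.42 from DMSO and -0.39 from water, and without BPA 1 they were -0.12 and -0.095.

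The adaptor gene ced-6, whose product binds the tail of CED-1, varied least. It stood at 39.9, 35.3, 41.1 and 36.05 RPKM in the BPA lineage, 34.7, 41.05, 37.7 and 38.2 RPKM in the DMSO lineage, and 42.7, 29.2, 33.9 and 38.8 RPKM in the water lineage. Its SD over the 12 libraries was 0.15 on the log2(RPKM + 1) scale, against a median of 0.37 for all tested genes. This gives the narrowest intervals of the 8: the log2 difference was 0.01 (-0.28 to 0.29) between BPA and DMSO and 0.08 (-0.20 to 0.37) between BPA and water.

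The gene dyn-1 encodes the conventional dynamin of the worm, a GTPase that pinches membranes and serves endocytosis in many cells beside its role on the phagosome. It stood at 21.7, 10.0, 25.2 and 8.11 RPKM in the BPA lineage, 16.96, 7.78, 18.4 and 10.8 RPKM in the DMSO lineage, and 6.81, 9.31, 17.8 and 10.8 RPKM in the water lineage. Samples 1 and 3 were high in BPA and DMSO, and sample 3 alone in water, the pattern of ced-8. The log2 difference was 0.43 (-0.44 to 1.31) between BPA and water and 0.18 (-0.69 to 1.05) between BPA and DMSO. Leaving out 1 library, the difference between BPA and water ranged over 0.18 (without BPA 3) to 0.69 (without BPA 4), and without water 1 it was 0.24.

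In the CED-10 pathway, the adaptor gene ced-2, a homologue of mammalian CRKII, stood at 27, 26.1, 29.8 and 14.9 RPKM in the BPA lineage, 15.6, 24.5, 19.1 and 25.2 RPKM in the DMSO lineage, and 23.3, 25.6, 17.5 and 13.7 RPKM in the water lineage. BPA 3 was the highest of the 12 libraries, BPA 4 was near the lowest of the other lineages, and the lineages overlapped. The log2 difference was 0.18 (-0.38 to 0.74) between BPA and DMSO and 0.27 (-0.29 to 0.83) between BPA and water. Its partner ced-5, a homologue of the exchange factor DOCK180, was much steadier.

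The level of ced-5 was 40.2, 33.6, 37.9 and 31.6 RPKM in the BPA lineage, 36.8, 28.7, 35.01 and 35.6 RPKM in the DMSO lineage, and 26.1, 33.08, 33.09 and 31.7 RPKM in the water lineage. BPA 1 and BPA 3 were the highest of the 12 libraries and water 1 the lowest, and the lineages overlapped. The log2 difference of 0.20 between BPA and water (-0.08 to 0.49) had the smallest unadjusted p of the 24 member tests, 0.144 (limma, adjusted p = 0.987). Between BPA and DMSO it was 0.07 (-0.21 to 0.36).

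The GTPase gene ced-10, the RAC at the end of this pathway, stood at 1.85, 1.605, 2.68 and 2.94 RPKM in the BPA lineage, 3.601, 1.58, 1.996 and 1.32 RPKM in the DMSO lineage, and 2.21, 1.33, 1.23 and 2.03 RPKM in the water lineage. No group stood apart, and DMSO held both the highest library and 1 of the lowest. The log2 difference was 0.10 (-0.47 to 0.66) between BPA and DMSO and 0.27 (-0.29 to 0.83) between BPA and water, on a scale that understates changes at this low level.

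Between DMSO and water, the comparison of the solvent with its own control, the differences of the 8 genes lay between 0.02 for ced-1 and 0.25 for dyn-1 in log2, and every interval included 0 (lowest bound -0.77, highest 1.13). Of the 8 genes, 7 had a difference above 0 between BPA and DMSO, where 55.5% of all tested genes did. The numbers were 7 of 8 between BPA and water, against 48.2%, and 8 of 8 between DMSO and water, against 46.2%. The median difference of the 8 genes was 0.07 between BPA and DMSO, 0.21 between BPA and water and 0.11 between DMSO and water, beside 0.02, -0.01 and -0.02 for all tested genes. Each pair of comparisons shares a group of libraries, so these counts are not separate observations. In samples 1 and 3 alone 5, 7 and 5 of 8 genes lay above 0 in the same order, with medians of 0.14, 0.43 and 0.36. In samples 2 and 4 alone 3, 5 and 3 of 8 genes lay above 0, with medians of -0.04, 0.02 and -0.06. The counts and medians thus differed between these subsets of the samples.

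**Figure D2:**
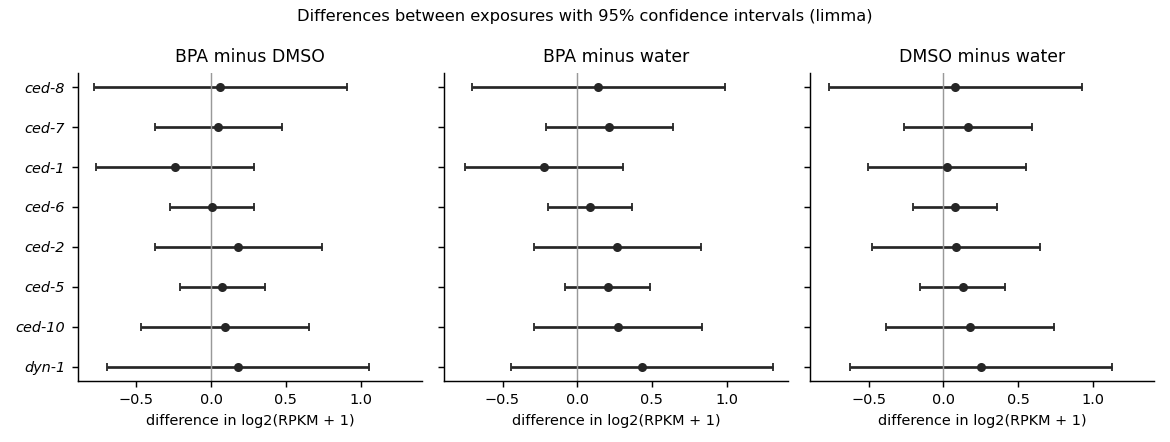
Difference in log2(RPKM + 1) for each engulfment gene in the 3 comparisons, with 95% confidence intervals from limma (12 libraries in 1 fit). All 24 intervals include 0, and those of ced-8 and dyn-1 are the widest.

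In the BPA and DMSO lineages, the X-linked genes ced-8 and dyn-1 parted by sample number. Both of their samples 1 and 3 lay above both of their samples 2 and 4 in BPA and in DMSO, and not in water. The mean of samples 1 and 3 exceeded that of samples 2 and 4 by 0.99 in BPA, 1.18 in DMSO and 0.07 in water for ced-8, and by 1.28, 0.88 and 0.14 for dyn-1, all in log2(RPKM + 1). This split of the samples was chosen with earlier results of these data known, so no test is given, and the labels do not say what samples of equal number share. Samples 1 and 3 lay above samples 2 and 4 in both BPA and DMSO for 2 of the 8 genes and for 19% of all tested genes. They lay above in all 3 lineages for 0 of 8 and 9.23%, and below in both BPA and DMSO for 0 of 8 and 7.03%. Among the 830 tested X-linked genes the share was 60.4%, and among the 6593 autosomal ones 13.7%, so ced-8 and dyn-1 did what most X-linked genes did.

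The median X-linked gene was higher in samples 1 and 3 by 0.68 in BPA, 0.62 in DMSO and 0.45 in water, while autosomal medians ranged over -0.04 to 0.20 in the lineages. Both genes lay above this X-linked median in BPA and DMSO and below it in water. In BPA all 6 autosomal engulfment genes were also higher in samples 1 and 3, by 0.014 for ced-10 to 0.50 for ced-2. In DMSO 3 of these 6 were higher and 3 lower (ced-1, ced-2 and ced-6), and in water 4 were higher and 2 lower (ced-5 and ced-7). The gene ced-2 was higher by 0.50 in BPA and lower by 0.50 in DMSO, without overlap in either group. Likewise ced-6 differed by 0.18 in BPA and -0.13 in DMSO, also without overlap. The others parted in 1 lineage each or in none, ced-5 in BPA (0.25), ced-10 in DMSO (0.60) and ced-1 in water (0.63).

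Of the somatic marker lists, that of body wall muscle was higher in samples 1 and 3 in BPA, DMSO and water. That of the gonadal sheath was so in BPA and DMSO, and the others in some lineages or in none. The summed sheath markers stood at 91.0 and 149.2 RPKM in BPA 1 and 3 against 64.7 and 76.3 RPKM in BPA 2 and 4. DMSO 1 and 3 had 90.6 and 103.9 RPKM of them against 65.5 and 71.0 RPKM in DMSO 2 and 4. In water, sheath markers were at 104.7 and 107.9 RPKM in samples 1 and 3 and at 84.6 and 111.1 RPKM in samples 2 and 4, which overlapped. The body wall muscle markers summed to 18.3 and 33.5 RPKM in BPA 1 and 3 against 10.4 and 11.1 RPKM in BPA 2 and 4. In DMSO they summed to 24.01 and 24.2 RPKM in samples 1 and 3 against 10.98 and 12.3 RPKM in samples 2 and 4, and in water to 20.1 and 37.99 RPKM against 14.6 and 9.74 RPKM. Intestine markers were at 11.8 and 55.7 RPKM in samples 1 and 3 and at 58.4 and 18.5 RPKM in samples 2 and 4 of BPA, which overlapped. They were higher in samples 1 and 3 of DMSO, at 28.9 and 468.4 RPKM against 11.8 and 14.3 RPKM, and of water, at 42.6 and 132.6 RPKM against 16.8 and 21.7 RPKM. Neuron markers summed highest in BPA 4, at 26.7 RPKM, of which snb-1 alone gave 25.3 RPKM. There unc-119 stood at 1.38 RPKM, and rab-3 and rgef-1 were listed at 0. The summed neuron markers were higher in samples 1 and 3 in DMSO (3.16 and 3.56 RPKM against 1.61 and 1.85 RPKM) and overlapped in water. Hypodermis markers overlapped in BPA and in water. In DMSO they summed to 2.653 and 3.223 RPKM in samples 1 and 3 and to 12.98 and 3.224 RPKM in samples 2 and 4. DMSO 3 and DMSO 4 were thus nearly equal, and rol-6 alone gave 12.39 RPKM in DMSO 2. Coelomocyte markers, at most 2.496 RPKM in sum, were higher in samples 1 and 3 in DMSO, lower in water, and overlapped in BPA. The part of these tissues in the values of ced-8 and dyn-1 was not tested.

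**Figure D3:**
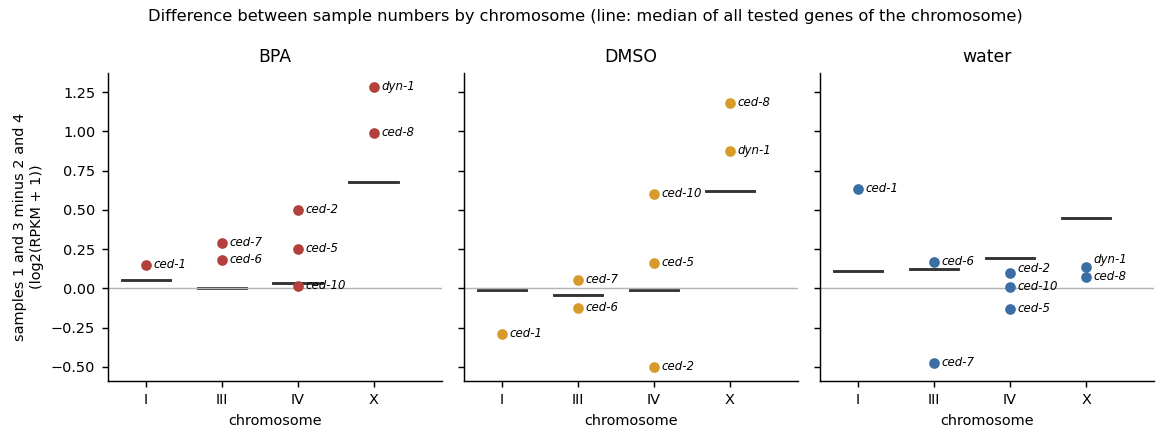
Mean of samples 1 and 3 minus mean of samples 2 and 4 in log2(RPKM + 1), for each engulfment gene by chromosome and ancestral exposure. Horizontal lines are the median of all tested genes of that chromosome. The X-linked ced-8 and dyn-1 are at 0.88 to 1.28 in BPA and DMSO and at 0.07 and 0.14 in water.

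Likeness to the 3 most variable members was measured as the root mean square difference between values of log2(RPKM + 1), each centred on its own mean over the 12 libraries. For dyn-1 the closest genes were sdha-1, an X-linked gene for a succinate dehydrogenase subunit, at 0.11, and the X-linked gene D1005.1 at 0.14, where the median of all tested genes was 0.63. For ced-8 they were the X-linked gene nra-3 and pme-5, both at 0.11, where the median was 0.60. The distance between ced-8 and dyn-1 themselves was 0.23, the smallest between either of them and any of the 8 genes, and the others lay 0.43 to 0.70 away. For ced-2 the closest genes, tftc-3 at 0.20 and sma-6 at 0.24, were farther, beside a median of 0.49. The level of sma-6 was low, at 0.48 to 1.57 RPKM. Closest genes were picked by this distance, so that they lie below the median was given in advance. All of these share the same 12 libraries, and a small distance says only that values moved together there.

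The deposited tables give values per transcript, and for 5 of the 8 genes the gene sum was divided among several transcripts. They are numbered here in the order of the files, which do not give their exons. Sums were steadier than their parts. For ced-5 the sum varied 1.54-fold over the 12 libraries, while transcript 1 ranged between 2.36 and 37.9 RPKM and transcript 2 between 0 and 37.6 RPKM. Transcript 1 held all of the signal in BPA 3, DMSO 4 and water 1 and 6.45% of it in the library where its share was lowest, and transcript 2 led in 8 of 12 libraries. Each group thus held libraries of both kinds.

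The parts of ced-7 changed places more often. Transcript 1 led in 7 libraries, transcript 2 in 2 and transcript 3 in 3, and transcript 1 was listed at 0 in 5 libraries but at 42.03 RPKM in water 2. In BPA, transcript 1 stood at 36.0 and 34.1 RPKM in samples 1 and 2 and was listed at 0 in samples 3 and 4, where transcript 3 stood at 47.3 and 33.05 RPKM. In DMSO it stood at 38.4 and 40.2 RPKM in samples 1 and 3 and was listed at 0 in samples 2 and 4, and in water it was listed at 0 in sample 3 alone. Among tested genes with several transcripts, the leading transcript differed between libraries in 54.2% of 3024. In 47.2% a transcript that led in some library was listed at 0 in another. Of the engulfment genes with several transcripts, 5 of 5 were of the first kind and 5 of 5 of the second. Of the 64 tested genes named rpl or rps, for ribosomal proteins that every cell uses, 10 were also listed at 0 in some library, so a transcript listed at 0 is not shown to be absent.

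For ced-2 transcript 1 led in 11 of 12 libraries, with 44.8% to 100% of the sum, and transcript 2 led in DMSO 2 at 13.5 RPKM against 10.96 RPKM. For ced-8 transcript 3 led in 11 libraries. The minor transcript 1 of ced-8 stood at 1.03, 3.16, 0.70 and 1.43 RPKM in the BPA lineage, at 1.79, 0, 2.27 and 0 RPKM in the DMSO lineage, and was listed at 0 in all 4 water libraries. Transcript 1 of ced-10 stood at 1.12, 0.54, 1.83 and 1.84 RPKM in the BPA lineage. It stood at 0, 0, 0.89 and 0.05 RPKM in the DMSO lineage, and at 0, 0, 0 and 0.21 RPKM in the water lineage. It led the gene in 3 libraries, BPA 1, 3 and 4, with 60.6%, 68.3% and 62.5% of the sum, and transcript 2 led in 9.

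Transcript 1 of ced-8 and transcript 1 of ced-10 were higher in BPA than in water without overlap. So were 1.17% of 7267 transcripts of genes with several transcripts, counting those with at least 1 RPKM in some library. Both overlapped between BPA and DMSO, where 0.936% of these transcripts were higher in BPA without overlap. They were singled out after their values were seen, so no test is given. Transcript 2 of ced-10 went the other way, with 0.94 ± 0.18 RPKM in the BPA lineage, 1.89 ± 1.16 RPKM in the DMSO lineage and 1.65 ± 0.45 RPKM in the water lineage (SD, n = 4). It was lower in BPA than in water without overlap, at most 1.103 RPKM (BPA 4) against at least 1.232 RPKM (water 3). BPA overlapped with DMSO, where DMSO 3 stood at 1.102 RPKM. The share of all transcripts lower in BPA without overlap was not counted. The sum of the gene overlapped between all lineages. At this level the division of a gene with roughly 28.6 to 111 reads a library rests on few reads.

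**Figure D4:**
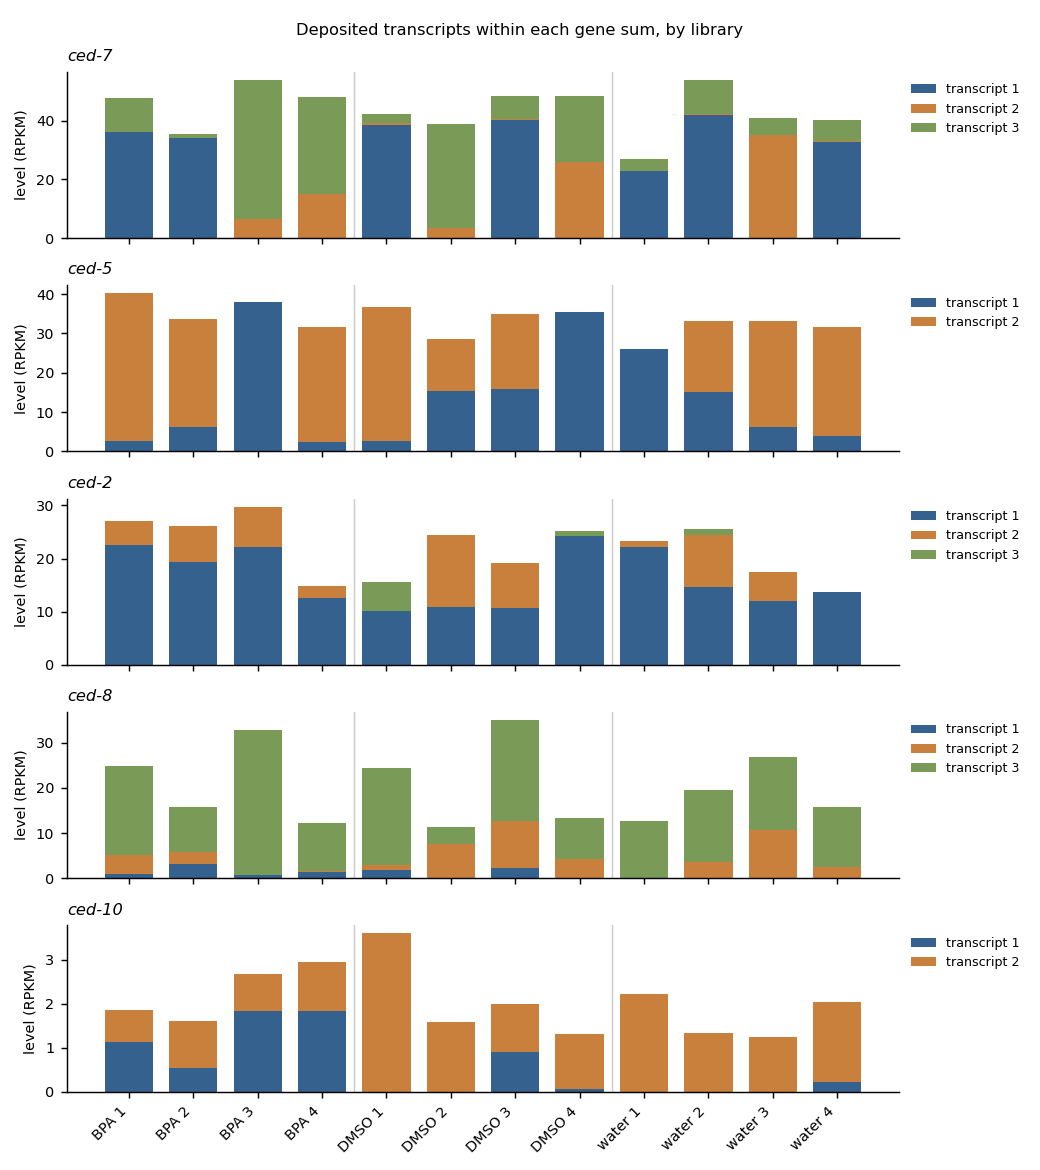
Level (RPKM) of each deposited transcript, stacked to the gene sum, for the 5 engulfment genes with several transcripts in the 12 libraries. The sums of ced-5 and ced-7 vary 1.54-fold and 1.996-fold, while the leading transcript changes between libraries of the same exposure.

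None of the 8 genes shares its locus in the transcript models with another gene name. The annotation of the WBcel235 assembly is not of the build of the files, and its names, lengths, strands and overlaps are used here. In it a gene on the opposite strand overlaps ced-5 (tax-6), ced-6 (wdr-37), ced-7 (C48B4.13), ced-8 (F08F1.4) and ced-10 (C09G12.18). Library preparation with strand is not stated, so reads of such pairs cannot be told apart. The overlapping genes found by name in the files were low, with at most 2.29 RPKM for tax-6, 2.60 RPKM for C48B4.13, 3.97 RPKM for F08F1.4 and 0.79 RPKM for C09G12.18.

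Other genes of the pathway did not pass the test. CED-12, a homologue of mammalian ELMO and partner of CED-5, is encoded by ced-12, which shares a merged locus with the casein kinase gene csnk-1. It stood at 35.7, 30.5, 36.95 and 35.5 RPKM in the BPA lineage, 43.2, 40.96, 45.4 and 47.8 RPKM in the DMSO lineage, and 38.5, 41.7, 39.8 and 43.0 RPKM in the water lineage. BPA lay below both other groups without overlap, as did 0.449% of tested genes against DMSO and 0.502% against water. Its log2 difference between BPA and DMSO of -0.35 (SE 0.10) did not pass the test over all genes (limma, adjusted p = 1). With csnk-1 added, the locus stood at 48.2 ± 3.04 RPKM in the BPA lineage, 46.9 ± 2.57 RPKM in the DMSO lineage and 44.3 ± 1.82 RPKM in the water lineage (SD, n = 4), which overlapped.

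Of 19 partners of CED-2 and CED-5 and regulators of RAC, 18 were tested and 0 passed in any comparison. The median log2 difference was 0.08 between BPA and DMSO (13 of 18 above 0), 0.11 between BPA and water (10 of 18) and -0.03 between DMSO and water (8 of 18). Over all tested genes 55.5%, 48.2% and 46.2% lay above 0. At an unadjusted p under 0.05 were 1 gene between BPA and DMSO, which was ced-12, 2 between BPA and water, ced-12 and srgp-1, and 0 between DMSO and water, where 0.872%, 2.71% and 1.7% of all tested genes were (limma). As given above, ced-12 shares its locus with csnk-1, and their sum overlapped between the lineages. The gene with the highest mean was srgp-1, for a protein that turns RAC off, at 116.6 ± 15.6 RPKM in the BPA lineage, 105.1 ± 16.3 RPKM in the DMSO lineage and 89.5 ± 15.3 RPKM in the water lineage. Next was abi-1, of the actin-regulating WAVE complex, at 103.8 ± 5.13, 98.8 ± 2.76 and 105.9 ± 18.4 RPKM.

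Genes of corpse signals and of the nucleases of dying cells gave the same count of calls. All 8 were tested and 0 passed, with medians of 0.01 between BPA and DMSO (5 of 8 above 0), -0.03 between BPA and water (3 of 8) and -0.06 between DMSO and water (3 of 8). The gene crn-1, for a nuclease of apoptotic DNA degradation, stood at 79.3 ± 7.98 RPKM in the BPA lineage, 76.1 ± 9.71 RPKM in the DMSO lineage and 86.5 ± 35.8 RPKM in the water lineage. The gene psr-1, the homologue of a protein first described as a phosphatidylserine receptor, stood at 60.4 ± 3.91, 57.3 ± 2.65 and 65.2 ± 13.9 RPKM. At an unadjusted p under 0.05 there were 0 genes in each comparison, against 0.872%, 2.71% and 1.7% of all tested genes (limma). Over all tested genes 55.5%, 48.2% and 46.2% had a difference above 0.

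Of 29 genes of phagosome maturation 28 were tested and 0 passed, and lst-4 was listed at 0 throughout. The medians were 0.04 between BPA and DMSO (20 of 28 above 0), 0.15 between BPA and water (21 of 28) and 0.06 between DMSO and water (19 of 28), where 55.5%, 48.2% and 46.2% of all tested genes lay above 0. An unadjusted p below 0.05 was found for 0, 1 (ocrl-1) and 0 of the 28, against 0.872%, 2.71% and 1.7% of all tested genes. The clathrin heavy chain gene chc-1 stood at 152.9 ± 20.6 RPKM in the BPA lineage, 140.0 ± 24.1 RPKM in the DMSO lineage and 116.8 ± 46.9 RPKM in the water lineage. The lipid phosphatase gene ocrl-1 stood at 75.6 ± 3.27, 72.0 ± 4.86 and 61.7 ± 9.19 RPKM, and its difference between BPA and water of 0.30 (SE 0.12) did not pass the test (limma, adjusted p = 0.987).

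Of 13 lysosome and autophagy genes 12 were found by name and 8 tested, and 0 passed. The medians were 0.06 between BPA and DMSO (6 of 8 above 0), -0.01 between BPA and water (4 of 8) and 0.02 between DMSO and water (4 of 8). Of all tested genes 55.5%, 48.2% and 46.2% lay above 0. In no comparison did a gene of the list have an unadjusted p below 0.05, against 0.872%, 2.71% and 1.7% of all tested genes (limma). The highest were atg-18, at 57.3 ± 4.28 RPKM in the BPA lineage, 52.8 ± 6.33 RPKM in the DMSO lineage and 44.2 ± 14.5 RPKM in the water lineage, and the cystine transporter gene ctns-1, at 48.8 ± 2.37, 48.7 ± 4.01 and 42.8 ± 4.44 RPKM. The protease genes asp-1 and cpl-1 and the autophagy genes lgg-1 and lgg-2 were below the filter: asp-1 was listed at 0 in every library, and the others reached at most 2.83, 1.03 and 0.83 RPKM.

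Upstream of engulfment, 5 of 6 core cell death genes were tested and 0 passed. The medians were 0.16 between BPA and DMSO (4 of 5 above 0), 0.23 between BPA and water (5 of 5) and 0.08 between DMSO and water (4 of 5). Of all tested genes 55.5%, 48.2% and 46.2% lay above 0. In each comparison 0 of the 5 had an unadjusted p below 0.05, against 0.872%, 2.71% and 1.7% of all tested genes (limma). The p53 homologue cep-1 stood at 66.3 ± 4.01 RPKM in the BPA lineage, 59.8 ± 9.64 RPKM in the DMSO lineage and 56.5 ± 4.01 RPKM in the water lineage. The caspase activator gene ced-4 stood at 23.7 ± 5.25, 22.5 ± 1.62 and 21.2 ± 2.21 RPKM (SD, n = 4 each). The level of ced-4 was thus within the range of the engulfment genes, near that of ced-2.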

How the data were processed

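Expression was measured in 12 libraries of F3 gonads, made with a SMART-Seq kit and a Nextera XT kit and read as single ends of 50 bp, per the labels' protocols. The authors deposited 1 table of transcripts a library, in RPKM in 11 tables and in FPKM in that of BPA 1, per the file headers. The 2 units are the same quantity for single-end reads. HISAT and StringTie were used with build ce10, per the submitters' processing notes. The annotation is not given in the sources used here, nor are versions or filters. Each table lists 49201 transcripts. Values were summed per gene name to 40961 genes, and 279 unnamed transcripts (0.88% to 2.67% of a library's sum) were left out.

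The 7570 genes that reached 1 RPKM in 4 or more libraries entered a limma fit (version 3.58.1, R 4.3.3) on log2(RPKM + 1): all 12 libraries, a variance trend, two-sided, Benjamini-Hochberg adjustment over all tested genes, calls at an adjusted p under 0.05. The procedure was also run on simulated data with independent noise in each library. Those data held no differences by sample number, so the run does not test the fit where such differences are present. Sums, distances and figures were made in Python 3.11.15. Chromosomes were taken by name from the WBcel235 annotation (98.1% of tested genes), and no coordinates are given. Depth was estimated from the most frequent product of value and annotated length. Too few values came out as whole reads for a test on counts. No library was a copy of another (at most 0.02% identical values in a pair).

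The members and the lists were chosen with earlier results of these data known. The rule for named genes takes all members, the pair of highest mean in each list without calls, and the closest pair of genes for the 3 most variable members. Names at shared loci were added. The genes below the filter and the single transcripts of ced-8 and ced-10 were named after their values were seen. Sums over merged loci were planned for members that share one, and none does. Alternatives were other pseudocounts, filters, scaling, weights, sample-number terms or subsets, sums per locus, and each library left out.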

Additional observations from a re-analysis of the deposited data

How the results depend on the processing

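No engulfment gene was called in any of the 24 alternative settings, and the smallest adjusted p of a member over all of them was 0.652 (limma; ced-5 between BPA and water, without water 2). Of the 24 member differences, all small beside their intervals, 20 changed sign in some setting. With samples 1 and 3 alone the log2 difference between BPA and DMSO was -0.035 for ced-8 and -0.20 for ced-10, and that between DMSO and water -0.44 for ced-1, -0.21 for ced-2 and -0.071 for ced-6. With samples 2 and 4 alone that between BPA and DMSO was -0.32 for ced-2, -0.15 for ced-6, -0.068 for ced-7 and -0.022 for dyn-1. There, that between BPA and water was 0.023 for ced-1, -0.17 for ced-7, -0.32 for ced-8 and -0.14 for dyn-1, and that between DMSO and water -0.018 for ced-5, -0.099 for ced-7, -0.48 for ced-8, -0.12 for ced-10 and -0.12 for dyn-1. Array weights gave -0.099 for ced-8 and -0.068 for ced-10 between BPA and DMSO and -0.041 for ced-8 between BPA and water, and median ratio scaling gave -0.017 for ced-6 between BPA and DMSO.

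Leaving out 1 library at a time, the differences between BPA and DMSO ranged over -0.42 to -0.12 for ced-1, 0.053 to 0.40 for ced-2, -0.0033 to 0.13 for ced-5, -0.034 to 0.044 for ced-6, -0.027 to 0.17 for ced-7, -0.17 to 0.34 for ced-8, -0.030 to 0.30 for ced-10 and -0.068 to 0.44 for dyn-1. Between BPA and water they ranged over -0.0096 to 0.17 for ced-6 and -0.090 to 0.37 for ced-8, and with no change of sign over -0.39 to -0.029 for ced-1, 0.11 to 0.48 for ced-2, 0.13 to 0.26 for ced-5, 0.041 to 0.36 for ced-7, 0.17 to 0.37 for ced-10 and 0.18 to 0.69 for dyn-1. Without water 1 that of ced-1 was -0.029, that of ced-5 0.13 and that of ced-7 0.041. Between DMSO and water they ranged over -0.094 to 0.21 for ced-1, -0.073 to 0.22 for ced-2, -0.016 to 0.16 for ced-6, -0.0089 to 0.31 for ced-7, -0.20 to 0.31 for ced-8, -0.028 to 0.30 for ced-10, 0.053 to 0.21 for ced-5 and 0.064 to 0.49 for dyn-1.

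The count of called genes over the whole table was 2 between BPA and DMSO, 1 between BPA and water and 1 between DMSO and water. Between BPA and DMSO it was 1 with a pseudocount of 0.1, 1 among genes averaging 10 RPKM or more, 1 with only these groups, 1 per locus, 4 in samples 1 and 3 alone and 12 in samples 2 and 4 alone. Between BPA and water it was 3 with only these groups, 2 with array weights, 0 per locus, 4 in samples 1 and 3 alone and 16 in samples 2 and 4 alone. Between DMSO and water it was 0 among genes averaging 10 RPKM or more, 3 with only these groups, 5 in samples 1 and 3 alone and 7 in samples 2 and 4 alone. Without 1 library it was 2 to 3, 1 to 2 and 1 to 2 in the 3 comparisons. With sample number as a replicate block it was 1 between BPA and DMSO and 0 between BPA and water. The number was not taken as a pairing in the main fit because the labels do not say what samples of equal number share. Samples of equal number correlated over -0.07 to 0.34 in their deviations, above 0.1 in 5 of 12 pairs. Of the 12 libraries, 6 correlated best with their own number, and these values do not settle whether the numbers pair the samples. The cause of these shifts was not tested. The spread limits what can be seen: the 95% interval between BPA and water reached 2.475-fold in RPKM + 1 for dyn-1 and 1.98-fold for ced-8.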
